A study of Mus musculus with 8 samples.

Results

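AP-1 is a dimeric transcription factor built from basic leucine zipper proteins, and its 10 genes Fos, Fosb, Fosl1, Fosl2, Jun, Junb, Jund, Atf3, Batf and Maff were followed here in mouse macrophages given interleukin 4 (IL-4) and in macrophages titled Ern1f/f or Ern1f/fLyz2-Cre. The genes were taken by symbol, 10 of the 23354 symbols in the tables. No rule on their RNA levels was used, but they were chosen with earlier results of these data known. Fos proteins cannot pair with each other and need a Jun partner, whereas Jun proteins also pair among themselves, so the mix of partners sets which dimers can form. Atf3, Batf and Maff encode further zipper proteins, of which Batf and the small Maf protein Maff lack a classical activation domain and Atf3 is induced by many stresses. In macrophages many of these genes are immediate-early genes, switched on within minutes by mitogen-activated protein (MAP) kinase signalling, and Batf proteins pair with Jun proteins at sites shared with interferon regulatory factors.

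Messenger RNA was sequenced in 8 libraries of bone marrow-derived macrophages, from mice of 8 weeks labelled C57BL/6J, whose marrow cells were differentiated over 7 days in L929 cell-conditioned medium. By their titles they form 4 groups of 2 libraries: Ern1f/f control, Ern1f/f with IL-4, Ern1f/fLyz2-Cre control and Ern1f/fLyz2-Cre with IL-4, where IL-4 was given at 20 ng/ml for 24 hours. Ern1 encodes IRE1 alpha, a sensor of unfolded protein in the endoplasmic reticulum. All 4 groups carry the floxed Ern1 allele, and Cre is driven from Lyz2, a gene of myeloid cells, in the other genotype, so no group has Cre without the floxed allele and none has wild-type Ern1. The labels do not say whether the 2 libraries of a group came from separate animals, so p-values measure only the spread between these libraries. The design asks how IL-4, the genotype and their combination alter RNA levels.

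The genotype field of the labels contradicts the titles in 4 of the 8 libraries: it gives Ern1f/f for all libraries numbered 1 and Ern1f/fLyz2-Cre for all numbered 2. Ern1 itself separates neither grouping: it read 9.11 to 11.5 FPKM (fragments mapped to a gene, scaled for its length and for library size) in libraries titled Ern1f/f and 7.43 to 14.3 FPKM in those titled Ern1f/fLyz2-Cre, and a gene-level value does not resolve a deleted exon. Lyz2, the gene from whose locus Cre is expressed, was lower in the library titled Ern1f/fLyz2-Cre in all 4 pairs of the same number and treatment. It read 18114 FPKM in Ern1f/f against 10949 in Ern1f/fLyz2-Cre in the controls numbered 1, and 8901 against 5780 with IL-4. In the libraries numbered 2, to which the field gives 1 genotype, it read 17415 against 2171 FPKM in the controls and 11961 against 1572 with IL-4. Lyz2 thus ran with the titles and not with the field, and the groups below follow the titles, with values also given by number. The IL-4 label held in every pair, with Mrc1, a mannose receptor raised by IL-4, at 29.4 to 54.0 FPKM in controls and 124 to 208 FPKM with IL-4. Deposited confidence bounds, read as counting error, imply between 21500000 and 37900000 fragments assigned to genes in each library. Of 9 macrophage marker symbols, 8 were in the tables and all 8 were detected, with Csf1r at 356 to 870 FPKM and Cd68 at 669 to 1001 FPKM. The 8 fibroblast markers summed to 97.4 to 598.7 FPKM in the libraries numbered 1 and to 2.58 to 9.57 FPKM in those numbered 2. Of these markers, Lum was low throughout, at 0.416 FPKM or less, with 0 in both IL-4 libraries numbered 2. Thy1 did not follow the sum, at 0.183 to 0.235 FPKM in number 1 and 0.143 to 1.15 FPKM in number 2. In bulk RNA, fewer cells of a type and less RNA per cell cannot be told apart.

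On the FPKM scale, which is per transcript length, the family spanned levels from abundant to very low. The mean over 8 libraries was 221 FPKM for Atf3, 94.1 for Junb, 56.0 for Jun, 43.4 for Jund, 28.3 for Fos, 27.7 for Batf, 10.3 for Fosl2, 3.03 for Maff, 1.23 for Fosl1 and 0.0525 for Fosb. Atf3 stood above 96.8% of the 10934 genes that reached 1 FPKM in at least 2 libraries, Jun above 88.7% and Maff above 20.5%. Within every library Atf3 lay above Junb, Junb above Jun, Jun above Jund, and Fosl2 above Maff. Fos and Batf exchanged places, with Fos higher in 4 of 8 libraries, and Batf lay above Fosl2 in 5 of 8. No neighbouring pair in this order had ranges that stayed apart across the libraries. The deposited 95% bounds, which cover counting error, lay within 1.41% to 2.15% of the value for Atf3 and within 12.4% to 19.4% for Maff. Fosb (chromosome 7, 19302696 to 19310045, minus strand) stayed at 0.00736 to 0.183 FPKM and did not reach 1 FPKM in any library, so it was not tested, which leaves 9 members. Fosl1 reached 1 FPKM in 3 libraries, all numbered 1, so its entry into the tests rests on the libraries where it is high.

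**Figure D1:**
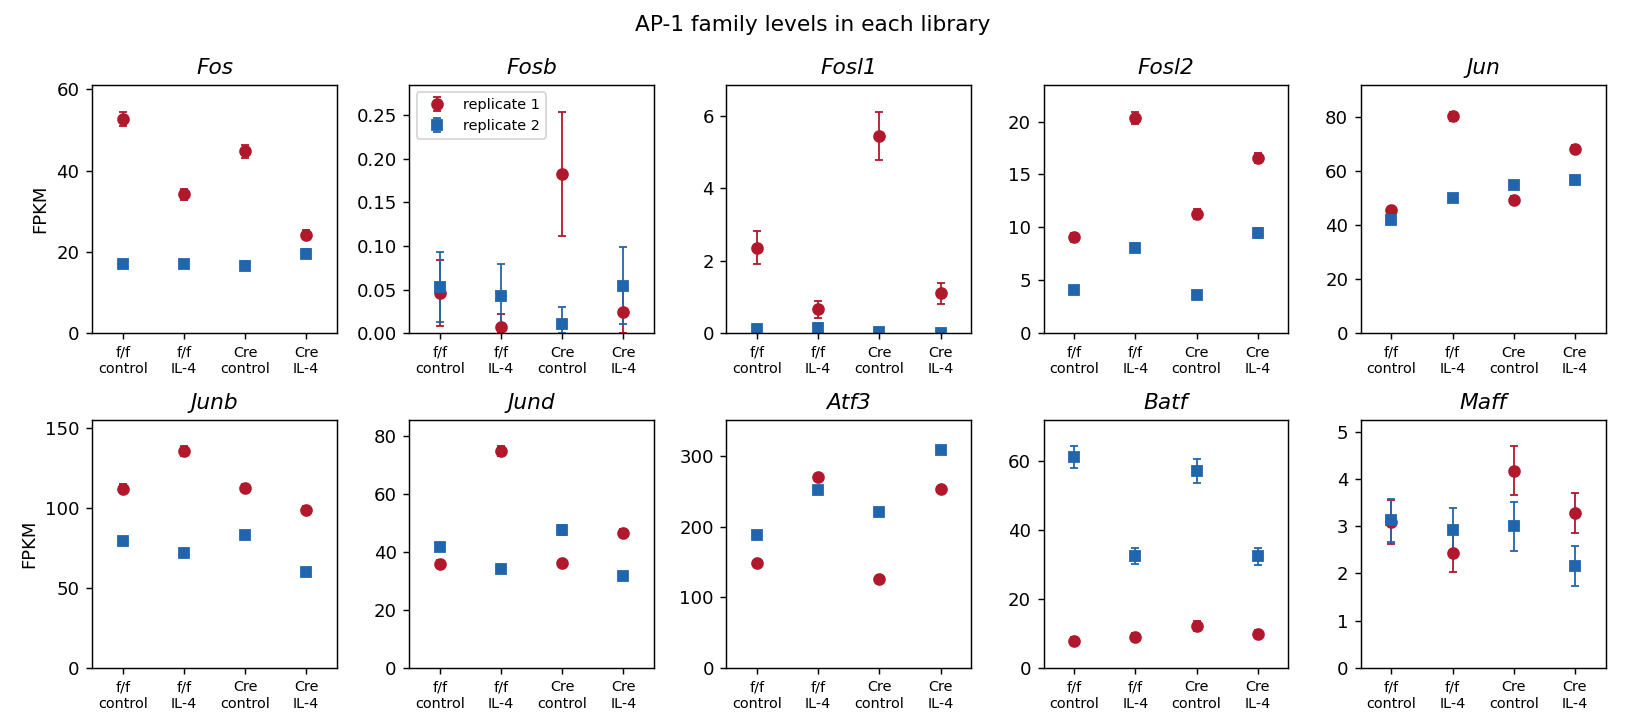
FPKM (linear axis from 0) of each of the 10 AP-1 genes, 1 panel per gene, in the 4 titled groups, where f/f is Ern1f/f and Cre is Ern1f/fLyz2-Cre. Red circles are libraries numbered 1, blue squares those numbered 2, and bars are the deposited confidence bounds. The numbers lie apart for Fos, Fosl1, Junb and Batf. Every IL-4 library is above every control for Atf3, a separation that was not counted over all genes.

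IL-4 was tested as the average over both titled genotypes on log2(FPKM + 1) with limma, which understates changes of low genes. Without regard to the replicate number, limma called 0.841% of all tested genes (threshold 0.05 after Benjamini-Hochberg adjustment) and 0 of 9 members. With the replicate number as a block 12.7% of genes passed, 5.88% higher and 6.86% lower, and 2 of 9 members did: Fosl2 and Atf3, both higher. An unadjusted p under 0.05 was found for 1 of 9 members against 13.9% of all genes without the block, and for 3 of 9 against 30.0% with it, shares near the background. Over all genes 40.5% moved one way in all 4 pairs of control and IL-4 libraries, and 4 of the 9 members did: Fosl2, Jun and Atf3 were higher and Maff was lower each time.

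Fosl2 encodes FRA2, a Fos protein without the C-terminal activation domain of c-Fos. It lies on chromosome 5 at 32136472 to 32157839 (mm10, plus strand). In Ern1f/f it read 9.04 FPKM in control and 20.3 with IL-4 in the libraries numbered 1, and 4.06 and 8.08 in those numbered 2. In Ern1f/fLyz2-Cre it read 11.3 and 16.5 FPKM in the libraries numbered 1, and 3.57 and 9.44 in those numbered 2. Every IL-4 library was therefore above its own control, while the IL-4 libraries numbered 2 lay within the span of the controls. As means over 2 libraries this was 6.55 ± 3.53 FPKM (SD) against 14.2 ± 8.67 in Ern1f/f, and 7.41 ± 5.44 against 13.0 ± 5.02 in Ern1f/fLyz2-Cre. The averaged IL-4 difference was 0.91 ± 0.12 (SE) on the log2 scale with the replicate block, 1.88-fold, with a 95% interval of 0.63 to 1.20 and a limma adjusted p of 0.00688. Without the block the same difference had a SE of 0.47 and an adjusted p of 0.465. With the block Fosl2 passed when any one of the 8 libraries was left out, with limma adjusted p from 0.00879 to 0.0431.

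Taken by genotype with the block, 2.12% of genes passed for IL-4 in Ern1f/f and 3.32% in Ern1f/fLyz2-Cre, against 0% and 0.0549% without it, where 673 and 933 genes had an unadjusted p under 0.05. Fosl2 was the member that passed in Ern1f/f, 1 of 9, at a log2 difference of 0.97 ± 0.17 and a limma adjusted p of 0.0447. In Ern1f/fLyz2-Cre, where 0 of 9 passed, its difference was 0.86 ± 0.17 with an adjusted p of 0.0517. The Ern1f/f result was lost by limma when the Ern1f/f control replicate 1 (adjusted p 0.279), Ern1f/f IL-4 replicate 1 (0.248), Ern1f/fLyz2-Cre IL-4 replicate 1 (0.0599), Ern1f/f control replicate 2 (0.211), Ern1f/f IL-4 replicate 2 (0.111) or Ern1f/fLyz2-Cre IL-4 replicate 2 (0.0630) was left out. It is not shown to differ between the genotypes: the difference of the 2 IL-4 effects was -0.11, with a 95% interval of -0.68 to 0.46.

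**Figure D2:**
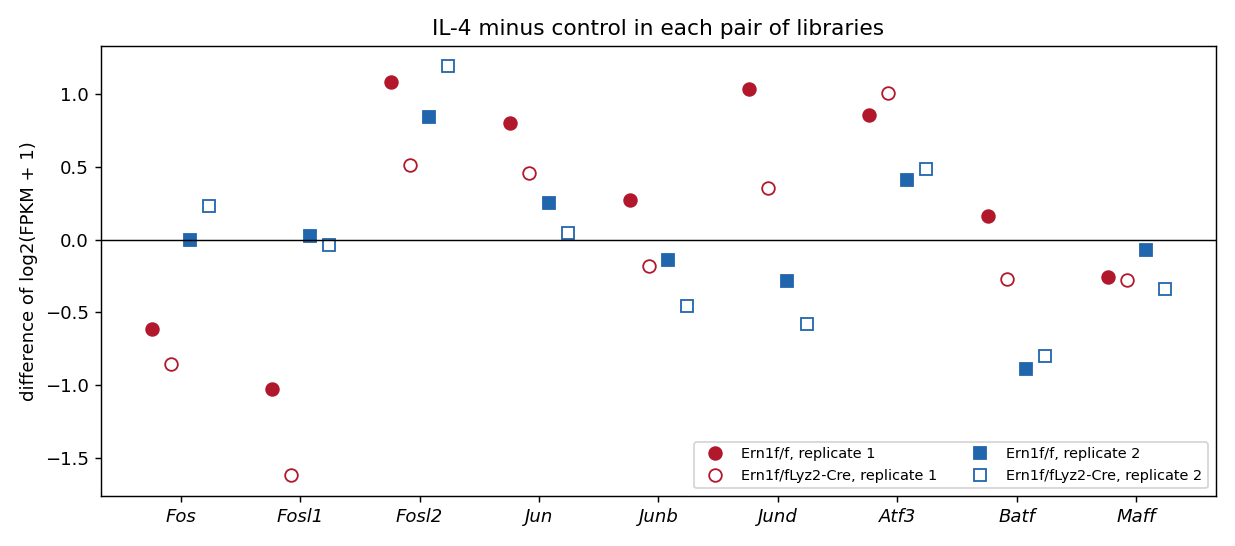
Difference of log2(FPKM + 1), IL-4 minus control, for the 9 tested members in the 4 pairs of the same titled genotype (filled Ern1f/f, open Ern1f/fLyz2-Cre) and replicate number (red circles 1, blue squares 2). All 4 points lie above 0 for Fosl2, Jun and Atf3 and below 0 for Maff, and the 2 numbers lie on opposite sides of 0 for Jund and, narrowly, for Fos.

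Fos itself encodes c-Fos, the classical immediate-early member. It lies on chromosome 12 at 85473901 to 85477270 (plus strand). In Ern1f/f it read 52.8 FPKM in control and 34.2 with IL-4 in the libraries numbered 1, and 17.0 and 17.1 in those numbered 2. In Ern1f/fLyz2-Cre it read 44.8 and 24.3 FPKM in the libraries numbered 1, and 16.6 and 19.6 in those numbered 2. The level was thus lower with IL-4 in both pairs numbered 1 and flat or slightly higher in both numbered 2. Averaged over all pairs the log2 difference was -0.31 with a limma adjusted p of 0.354 with the block and 0.866 without it. Fosl1 encodes FRA1, also without the c-Fos activation domain; its locus on chromosome 19 (5447698 to 5455938) overlaps Ccdc85b on the other strand, and since strand use in counting is not stated its low values are uncertain. It read 2.36 and 5.45 FPKM in the controls numbered 1, 0.652 and 1.10 in their IL-4 partners, and 0.145 FPKM or less in all 4 libraries numbered 2. The averaged difference was -0.66 with a limma adjusted p of 0.223 with the block. It passed with the block only when the Ern1f/fLyz2-Cre control replicate 2 was left out (adjusted p 0.0301). In the libraries numbered 1 the fibroblast marker sum was also lower with IL-4, at 97.4 against 219 FPKM in Ern1f/f and 272 against 598.7 FPKM in Ern1f/fLyz2-Cre, and its part in the levels of Fos and Fosl1 was not tested.

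Among the Jun genes, Jun encodes c-Jun, the main partner of Fos proteins, from chromosome 4 at 95049036 to 95052222 (minus strand). It read 45.6 FPKM in control and 80.5 with IL-4 for Ern1f/f and 49.4 and 68.3 for Ern1f/fLyz2-Cre in the libraries numbered 1. In those numbered 2 it read 41.9 and 50.1 FPKM for Ern1f/f and 54.9 and 56.8 for Ern1f/fLyz2-Cre. All 4 IL-4 libraries were above their controls, the last pair by little. The averaged log2 difference was 0.39 ± 0.14 with the block and a limma adjusted p of 0.114. Without the Ern1f/f IL-4 replicate 2 library its adjusted p was 0.0434. Junb (chromosome 8, 84976909 to 84978748, minus strand), whose protein can restrain c-Jun at some promoters, read 112 FPKM in both controls numbered 1, 135.6 with IL-4 in Ern1f/f and 99.0 with IL-4 in Ern1f/fLyz2-Cre. In the libraries numbered 2 Junb read 79.0 FPKM in control and 71.8 with IL-4 for Ern1f/f, and 83.1 and 60.2 for Ern1f/fLyz2-Cre. Only the Ern1f/f pair numbered 1 was higher with IL-4, and the averaged difference of -0.13 had a limma adjusted p of 0.453 with the block.

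Jund (chromosome 8, 70697739 to 70700616, plus strand), which is expressed constitutively in many cell types, went opposite ways by number. It read 35.9 FPKM in control and 74.7 with IL-4 for Ern1f/f and 36.0 and 46.4 for Ern1f/fLyz2-Cre in the libraries numbered 1. In those numbered 2 it read 41.5 and 34.0 FPKM for Ern1f/f and 47.5 and 31.5 for Ern1f/fLyz2-Cre. The averaged difference was 0.13 with a limma adjusted p of 0.761 with the block. Of all tested genes, 13.1% moved one way in both pairs numbered 1 and the other way in both numbered 2, and 2 of 9 members, Fos and Jund, did. Jun and Jund both have an annotated antisense transcript (Junos and Gm11175), and reads from the 2 strands cannot be told apart here.

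Atf3 was the most abundant member and encodes a stress-induced zipper protein that represses many inflammatory genes in macrophages. It lies on chromosome 1 at 191170297 to 191183333 (minus strand). In Ern1f/f it read 149 FPKM in control and 271 with IL-4 in the libraries numbered 1, and 189 and 252 in those numbered 2. In Ern1f/fLyz2-Cre it read 125 and 253 FPKM in the libraries numbered 1, and 221 and 309.5 in those numbered 2. All 4 IL-4 libraries, at 252 FPKM or above, lay above all 4 controls, at 221 FPKM or below. The share of all genes separated in this way was not counted, and 17.0% were higher with IL-4 in all 4 pairs. The group means were 169 ± 28.3 FPKM (SD, n = 2) against 261 ± 13.4 in Ern1f/f and 173 ± 67.5 against 281 ± 39.7 in Ern1f/fLyz2-Cre. The averaged log2 difference was 0.69 ± 0.15 with the block, 1.62-fold, with a 95% interval of 0.34 to 1.04 and a limma adjusted p of 0.0294, against 0.22 without the block. With the block the limma call was lost without Ern1f/f control replicate 1 (adjusted p 0.109), Ern1f/f IL-4 replicate 1 (0.0745), Ern1f/fLyz2-Cre control replicate 1 (0.0675), Ern1f/fLyz2-Cre IL-4 replicate 1 (0.122), Ern1f/f control replicate 2 (0.0989) or Ern1f/fLyz2-Cre IL-4 replicate 2 (0.0949), and the direction did not change. By genotype the difference was 0.64 in Ern1f/f and 0.75 in Ern1f/fLyz2-Cre, with limma adjusted p of 0.193 and 0.11 with the block.

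Batf encodes a zipper protein that pairs with Jun proteins and binds beside IRF4 and IRF8 in lymphoid and dendritic cells. It lies on chromosome 12 at 85686720 to 85709087 (plus strand). Batf read 7.87 FPKM in control and 8.92 with IL-4 for Ern1f/f and 12.2 and 9.91 for Ern1f/fLyz2-Cre in the libraries numbered 1. In those numbered 2 it read 61.0 and 32.4 FPKM for Ern1f/f and 57.0 and 32.3 for Ern1f/fLyz2-Cre. All 4 libraries numbered 2 were above all 4 numbered 1, and within number 2 both IL-4 libraries were lower than their controls. The averaged IL-4 difference was -0.45 with a limma adjusted p of 0.177 with the block, and 0.0489 without the Ern1f/f control replicate 1 library. Maff lies on chromosome 15 at 79347678 to 79359076 (plus strand). It read 3.10, 4.18, 3.13 and 2.999 FPKM in the 4 controls and 2.44, 3.28, 2.93 and 2.16 in their IL-4 partners. It was lower in each pair while the groups overlapped, and its averaged difference of -0.23 had a limma adjusted p of 0.266 with the block.

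The bases before the RefSeq start are shown for Fosl2 and Atf3, the members that passed for IL-4, and for Fos and Batf, which were lower and higher in the libraries numbered 2 with no overlap. Capitals mark matches to TGACG, the core of the cyclic AMP response element to which ATF and AP-1 dimers bind, on either strand, and sequences are RefSeq promoters of GRCm38.p6 ending at the base before the start. Fosl2 is chr5:32136222-32136471 (plus strand), Atf3 chr1:191183334-191183583 (minus), Fos chr12:85473640-85473889 (plus) and Batf chr12:85686470-85686719 (plus).
Fosl2: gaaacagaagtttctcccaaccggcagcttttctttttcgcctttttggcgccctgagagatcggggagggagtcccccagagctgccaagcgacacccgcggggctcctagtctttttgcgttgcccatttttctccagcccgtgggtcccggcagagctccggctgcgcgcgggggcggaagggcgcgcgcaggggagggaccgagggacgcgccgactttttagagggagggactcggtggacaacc
Atf3: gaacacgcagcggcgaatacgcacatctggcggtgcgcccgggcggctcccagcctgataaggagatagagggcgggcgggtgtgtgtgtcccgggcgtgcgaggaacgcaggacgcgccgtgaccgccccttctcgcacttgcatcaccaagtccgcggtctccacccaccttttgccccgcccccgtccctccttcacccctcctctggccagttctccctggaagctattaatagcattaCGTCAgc
Fos: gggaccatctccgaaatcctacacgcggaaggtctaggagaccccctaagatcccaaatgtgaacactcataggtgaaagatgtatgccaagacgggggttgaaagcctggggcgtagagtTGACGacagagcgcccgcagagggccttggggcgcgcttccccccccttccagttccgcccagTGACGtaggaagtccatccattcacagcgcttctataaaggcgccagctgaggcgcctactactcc
Batf: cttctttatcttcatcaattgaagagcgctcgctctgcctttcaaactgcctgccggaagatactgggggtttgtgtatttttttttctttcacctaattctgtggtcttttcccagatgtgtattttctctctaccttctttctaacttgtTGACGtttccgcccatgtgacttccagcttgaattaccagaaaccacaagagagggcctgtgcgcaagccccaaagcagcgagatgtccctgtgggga
Fosl2 had no match, Atf3 had 1 on the opposite strand at -7 to -3, Fos had one at -129 to -125 and another at -66 to -62, and Batf had 1 at -98 to -94. Promoters were at hand for 9 members, Fosl1 being the exception, and 6 of these 9 held TGACG, against 17.8% of 32851 promoters of the same length. The whole element TGACGTCA, which contains TGACG on both strands, was in the Maff promoter at -29 to -22 and in 1.55% of promoters. Jun carried TGACATCA at -45 to -38, an AP-1-like site present in 2.93% of promoters. The AP-1 site TGANTCA (6.75% of promoters), the STAT6 spacing TTCNNNNGAA (5.85%) and the CArG box of serum response factor (1.47%) were each in 0 of the 9 windows. These matches describe letters in these windows, and bases farther upstream, for Fos as for the other members, were not searched. The Maff window was the closest of 3, and its RefSeq start lies 158 bases from the start of the deposited locus.

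Ratios within a library are free of differences in library scaling. Fosl2 made up 14.1%, 18.2%, 19.1% and 17.7% of the summed FPKM of the 4 Fos genes in the controls and 36.9%, 39.5%, 31.9% and 32.5% with IL-4. The 2 treatments did not overlap, for either number or genotype. The ratio of Fosl2 to Fos went from 0.171 to 0.595 and from 0.251 to 0.682 in the pairs numbered 1, and from 0.238 to 0.474 and from 0.215 to 0.482 in those numbered 2. In the pairs numbered 1 both a higher Fosl2 and a lower Fos entered this ratio, while in those numbered 2 Fos was level or higher. The ratio of summed Jun genes to summed Fos genes moved from 3.01 and 3.21 up to 5.27 and 5.10 with IL-4 in the libraries numbered 1, and from 7.64 and 9.20 down to 6.16 and 5.11 in those numbered 2. With IL-4 the 4 libraries thus lay between 5.10 and 6.16, and the controls lay on either side. Atf3 made up 31.2% to 45.4% of the whole family in controls and 43.1% to 59.3% with IL-4, higher in every pair. These shares were formed after the levels were seen and carry no test.

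**Figure D3:**
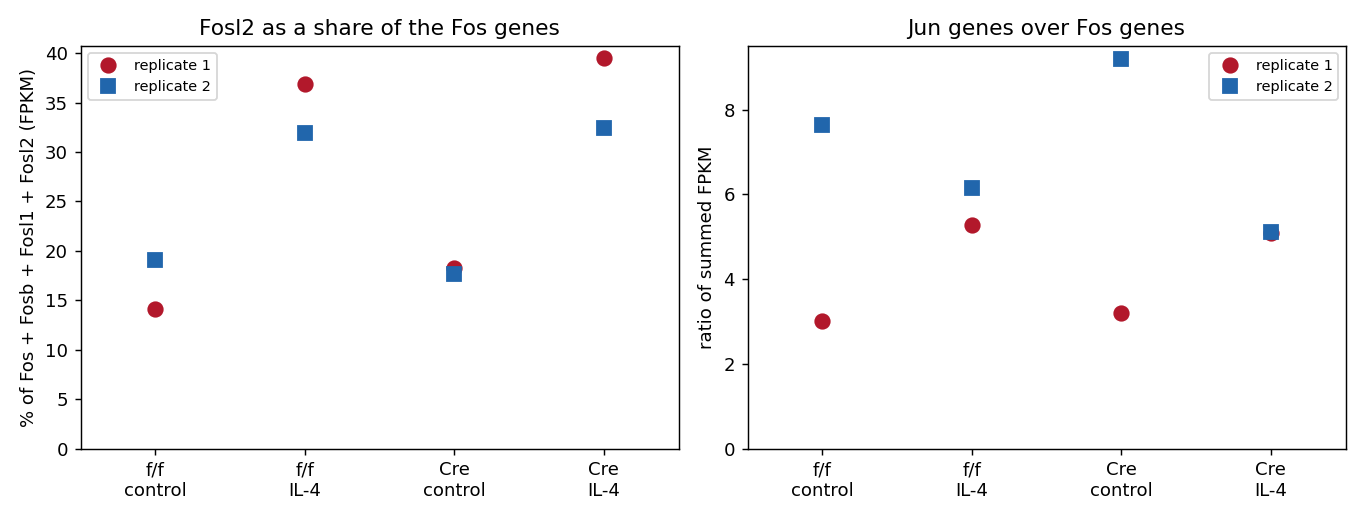
Left, Fosl2 as a percent of the summed FPKM of the 4 Fos genes, and right, the ratio of summed Jun genes to summed Fos genes, in the 4 titled groups, with red circles for replicate 1 and blue squares for replicate 2. The Fosl2 share is 14.1% to 19.1% in controls and 31.9% to 39.5% with IL-4, and the Jun to Fos ratio differs between the numbers in controls (3.01 and 3.21 against 7.64 and 9.20) more than with IL-4 (5.10 to 6.16).

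By the median, the members differed more between replicate numbers than between treatments or titled genotypes. Over 36 pairwise differences of the 9 members, the median absolute log2 difference was 0.69 between numbers, 0.44 between treatments and 0.21 between titled genotypes. The largest values were 2.81, 1.62 and 0.94, the last 2 of them from Fosl1. Fosl1 is among the 9 although it passed the filter only through libraries numbered 1, and the medians were not formed without it. Such medians were not formed over all genes either, so this order is not shown to be particular to the family. Number 2 minus number 1 was called for 33.4% of all genes by limma, 10.1% higher and 23.3% lower, and for 5 of 9 members. Same-numbered libraries deviated together, which leaves 1 set of libraries per number. The p-values below take the 4 libraries of a set as independent, and show agreement within these sets only. Batf rose by 2.08 ± 0.19 on the log2 scale (adjusted p 0.000954), from a mean of 9.72 FPKM in number 1 to 45.7 FPKM in number 2. Fosl2 fell by 1.10 ± 0.12 (adjusted p 0.00156, limma), from 14.3 to 6.29 FPKM. Junb fell by 0.64 ± 0.10 (adjusted p 0.00564, limma), from 115 to 73.5 FPKM, and Fos fell by 1.05 ± 0.20 (adjusted p 0.0104, limma), from 39.0 to 17.6 FPKM. Fosl1 is the fifth, with means of 2.39 and 0.0736 FPKM. It entered the test only through libraries numbered 1, where it is high, so its call by number rests on the filter and is given as a description, and without it 4 of 8 members were called. The 4 libraries of each number did not overlap for Batf, Fos, Junb and, with the same limit of the filter, Fosl1. Those of Fosl2 did overlap, and 31.8% of all genes did not.

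Fits were also made by number within 1 treatment, taking the 2 titled genotypes as replicates, with the same limit of 1 set per number. In control cells 34.9% of genes and 6 of 9 members were called. The shares were 29.9% and 6 of 9 with IL-4, and 47.9% and 6 of 9 over both. Batf, Fos, Fosl2 and Junb were called in each of these 3, Fosl1 (with the same limit of the filter) and Atf3 in control and over both, and Jun and Jund with IL-4 alone. In the earlier fit, with the titled groups and the number as a term, the call for Fosl1 was lost by limma without the Ern1f/f control replicate 1 (adjusted p 0.0636) or replicate 2 (0.0632). In that same fit Atf3 was at 0.33 with an adjusted p of 0.121, and it passed without the Ern1f/f IL-4 replicate 1 (0.0497) or replicate 2 (0.0494). With number as a term, every gene in the fit and no filter on low values, Fos (adjusted p 0.110), Fosl1 (0.137) and Junb (0.0575) did not pass by limma. All 6 tested fibroblast markers were also called lower in number 2, with a median log2 difference of -3.95 against -0.11 for all genes, and the B cell gene Cd79b read 0.524 to 1.53 FPKM in number 1 and 4.97 to 16.6 FPKM in number 2. The part of either in the members' differences was not tested. Because the genotype field follows the number, a difference by number and one by that field cannot be told apart.

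**Figure D4:**
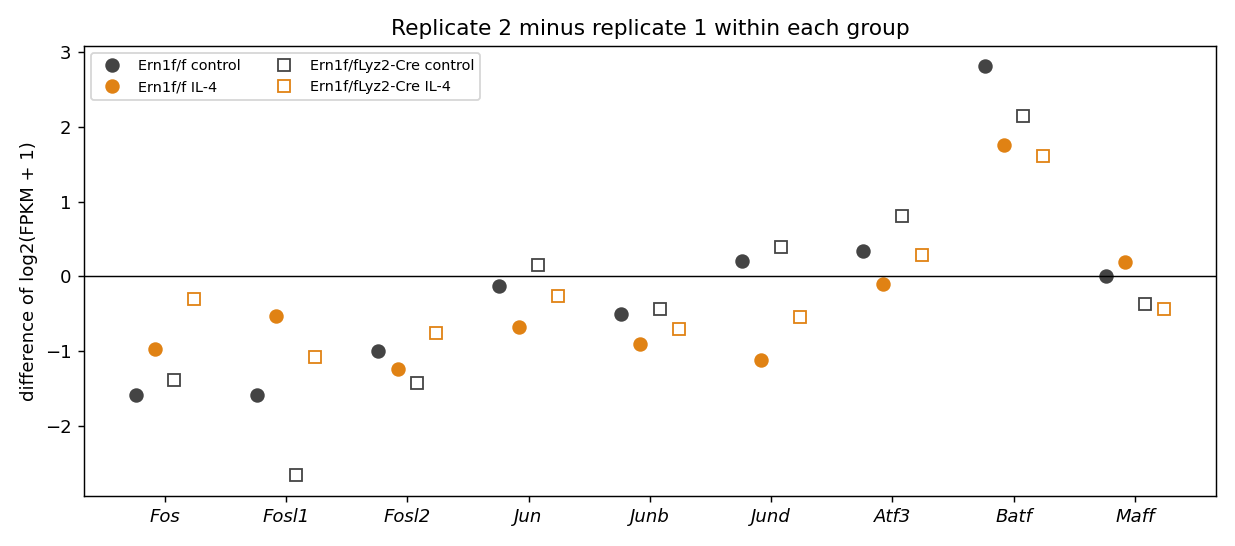
Difference of log2(FPKM + 1), replicate 2 minus replicate 1, for each tested member in the 4 titled groups (grey control, orange IL-4; filled circles Ern1f/f, open squares Ern1f/fLyz2-Cre). Batf is above 0 in all 4 groups, and Fos, Fosl1, Fosl2 and Junb are below 0 in all 4.

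**Figure D5:**
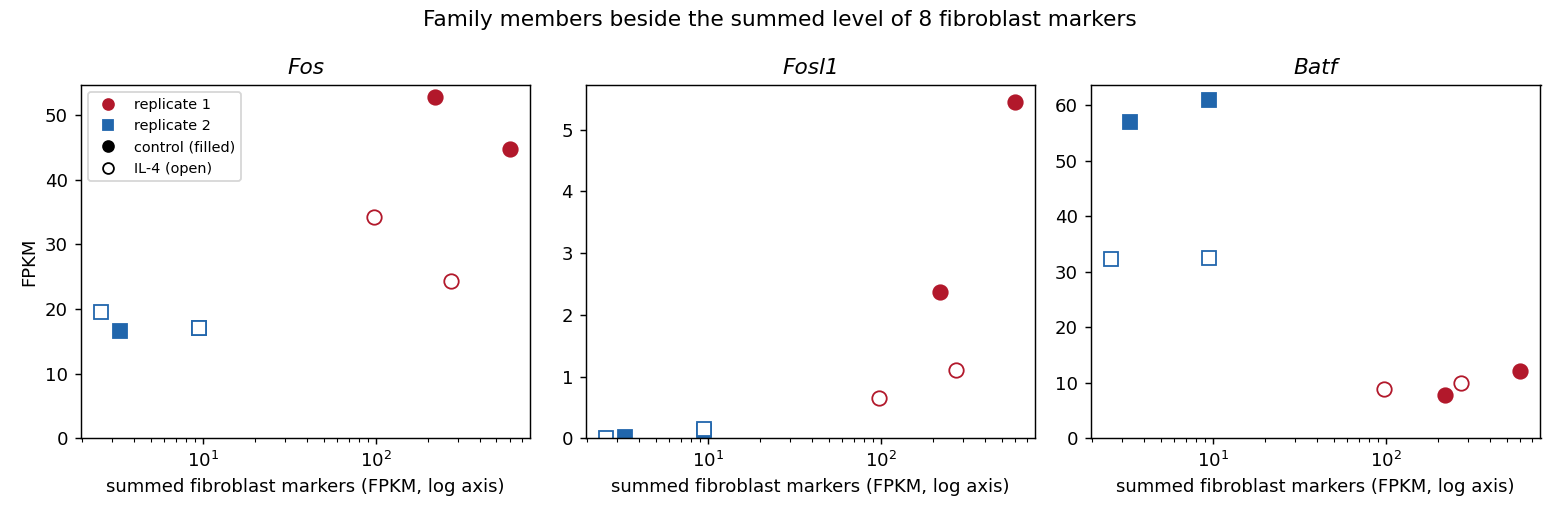
FPKM of Fos, Fosl1 and Batf (linear axes) against the summed FPKM of 8 fibroblast markers (log axis) in the 8 libraries, filled for control and open for IL-4, where the 2 Ern1f/f libraries numbered 2 lie at almost the same marker sum. The libraries numbered 1 (red circles), at sums of 97.4 to 598.7 FPKM, hold the higher values of Fos and Fosl1 and the lower values of Batf.

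IL-4 was also fitted within each number, taking the Ern1f/f and Ern1f/fLyz2-Cre titles as the 2 replicates, which is the grouping the genotype field gives. In the libraries numbered 1, 20.7% of genes and 6 of 9 members passed by limma. Atf3 rose by 0.93 (adjusted p 0.00399), Fosl2 by 0.80 (0.00758), Jund by 0.70 (0.0414) and Jun by 0.63 (0.0219, all limma). Fos fell by 0.74 (limma adjusted p 0.0183). Fosl1 fell by 1.32 (limma adjusted p 0.0164), but it entered the test only through libraries numbered 1, among them both controls, where it is highest. Its call thus rests on the filter and is given as a description. In those numbered 2, 11.6% of genes and 2 of 9 members passed: Fosl2 rose by 1.02 (0.00503) and Batf fell by 0.85 (0.0187). Atf3 there was 0.45 higher with a limma adjusted p of 0.082. Fosl2 was thus the member called in both. Averaged over the numbers in this grouping, 26.7% of genes and 5 of 9 members passed, Fosl1 among them with the same limit of the filter. The difference between the 2 IL-4 effects was called for 0.969% of genes and 0 of 9 members by limma, with the lowest adjusted p of 0.11 for Jund at -1.13 ± 0.28 and 0.128 for Fos at 0.85 ± 0.23.

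By title, the genotype comparison called 0% of genes in control cells and 0% as an average over treatments, with or without the block, and 0 of 9 members. With IL-4, 0.00915% of genes passed with the block, a single gene, and 0 of 9 members. That gene, lower in Ern1f/fLyz2-Cre and named after its value was seen, was H2-L, a class I histocompatibility gene. It has near-identical copies, and sharing of reads with them was not examined. At an unadjusted p under 0.05, 27 genes stood out in control cells without the block and 137 with it, and 52 and 223 in the average. The interaction of genotype and IL-4 also called 0% of genes, with 19 and 103 at an unadjusted p under 0.05. No member was higher or lower in all 4 genotype pairs, against 11.0% of all genes (6.55% higher and 4.49% lower). With the block the averaged genotype difference was 0.01 for Fosl2 with a 95% interval of -0.27 to 0.30, 0.04 for Atf3 (-0.31 to 0.39), -0.16 for Junb (-0.40 to 0.09), -0.14 for Fos (-0.63 to 0.35) and 0.15 for Batf (-0.31 to 0.62). For the interaction the interval was -0.59 to 0.81 for Atf3 and -1.66 to 0.69 for Jund. With 2 libraries a group, differences within these intervals are thus not excluded. Junb with IL-4 was -0.35 ± 0.14 in Ern1f/fLyz2-Cre against Ern1f/f, lower in both numbers, with an unadjusted limma p of 0.0474 and an adjusted p of 0.9999.

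Genes on 6 further lists were counted for IL-4 with the block, against 12.7% of all genes and a median of -0.03. A place on a list does not mean that a gene acts with or through AP-1. Among 15 tested zipper relatives and partners, 2 rose and 2 fell (median -0.11). Irf4, a partner of Batf proteins, went from 0.383 to 0.598 FPKM in controls to 5.88 to 11.3 FPKM with IL-4, a log2 rise of 2.67 ± 0.16 (limma adjusted p 0.000643). Batf3, a close relative of Batf, read 2.04 and 3.13 FPKM in controls numbered 1, 16.2 and 18.0 in controls numbered 2 and 27.8 to 45.6 with IL-4, a log2 rise of 2.30 (limma adjusted p 0.0419). Mafg, another small Maf gene, fell by 0.47 (0.0209), and Irf8, a partner of Batf proteins, fell by 0.41 (0.0284). Of 19 other immediate-early genes, 4 rose and 3 fell (median -0.07). Egr2 went from 11.6 to 15.8 FPKM in controls to 44.1 to 89.3 FPKM with IL-4, a log2 rise of 2.10 (limma adjusted p 0.0035). Klf4 rose by 1.33 (0.012) and Ier3 by 1.19 (0.00645), and Nfkbiz, an atypical inhibitor of NF-kappa B, fell by 1.52 (0.00499).

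Of 20 MAP kinase and serum response factor genes, 1 rose, Mkl2, a coactivator of serum response factor, by 0.91 (limma adjusted p 0.0035). In that list 2 fell, the ternary complex factor Elk3, which fell by 0.62 (0.00862), and Mef2d, which fell by 0.40 (0.0439), while Mapk3, which encodes ERK1, was at -0.28 with a limma adjusted p of 0.0571. Of 8 dual-specificity phosphatases, which switch MAP kinases off, Dusp4 rose and 2 fell. Dusp4 read 7.56 to 8.68 FPKM in controls and 23.3 to 35.5 FPKM with IL-4, a log2 rise of 1.63 (limma adjusted p 0.000632), and Dusp6 fell by 0.42 (0.0329) and Dusp16 fell by 0.46 (0.044). Of 10 integrated stress response genes 0 rose and 2 fell, where Sesn2 fell by 0.65 (0.0121) and Herpud1 fell by 0.68 (0.0326), and Ppp1r15a (0.0598) and Chac1 (0.333) did not pass by limma. Dusp7 did not pass either (0.257). Of 14 AP-1 target genes 3 rose and 2 fell (median 0.36). Cd44, a hyaluronan receptor, read 41.3 to 84.4 FPKM in controls and 95.1 to 133.9 FPKM with IL-4, a log2 rise of 0.85 (limma adjusted p 0.0086), and Ccnd1, which encodes cyclin D1, rose by 0.52 (0.0176). Vegfa fell by 1.27 (0.00662) and Tnf fell by 0.96 (0.0321). Without the block, Irf4, Egr2, Mkl2 and Dusp4 passed. In the genotype average 0 genes of these lists were called. With the block, the calls of Irf4, Egr2, Nfkbiz, Ier3, Mkl2, Elk3, Dusp4, Vegfa and Cd44 held with each of the 8 libraries left out. The call of Klf4 was lost without Ern1f/fLyz2-Cre IL-4 replicate 1. The other genes named here that were called each lost the call in 3 or more of the 8 cases.

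Genes whose log2(FPKM + 1) ran most like a member over the 8 libraries, among genes with a mean of at least 5 FPKM, are given by Pearson r as a description. Fosl2 ran with Vat1 (0.994), Vps53 (0.993) and Atxn7l3b (0.990), Atf3 with Aldh1b1 (0.985) and Gatm (0.976), and Fos with Wdr11 (0.994). Batf ran with Ccdc41 (0.992) and Ets2 (0.991), Junb with Tgfb1 (0.987), Jun with Chic2 (0.971), Jund with Hmg20b (0.966), Maff with Prosc (0.941) and Fosl1 with Med22 (0.991). The 8 libraries share their replicate number in sets of 4, and such values follow that split as well as IL-4.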

How the data were processed

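RNA was measured in 8 libraries. The authors deposited gene-level FPKM with confidence bounds. The submitters' processing notes name the build mm10, Cufflinks 1.3.0 and TopHat 1.4.1. The role of each tool, the gene models and strand use are not given in the sources used here. Rows sharing a symbol were summed. Start coordinates in the files count from 0 and are printed 1-based. Genes reaching 1 FPKM in 2 or more libraries (10934) were tested on log2(FPKM + 1). The model held 4 group means and used limma 3.58.1 with R 4.3.3, trended eBayes, two-sided p and Benjamini-Hochberg adjustment over all tested genes at a threshold of 0.05. Read counts were not used. No library pair was identical: the closest differed by a median absolute log2 value of 0.0901.

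The members and gene lists were chosen with earlier results of these data known. Same-numbered libraries deviated together from their group means (r = 0.688 to 0.827 over 6 pairs of groups), so the replicate number was taken to pair the samples, and the fit with it as a block is printed beside the one without. From each list up to 4 genes with the smallest IL-4 p with the block were named; genes picked likewise for genotype, of which 0 passed, are not named. The fits were tested on simulated data. Alternatives were pseudocount, filter, scaling, trend, fewer groups, the genotype field and leaving out each library. Figures used matplotlib 3.10.9 in Python 3.11.15.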

Additional observations from a re-analysis of the deposited data

Results flagged for a closer look

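Members whose response ran opposite ways in 2 groups are given here with the test of the difference. Fos was lower with IL-4 in both pairs numbered 1 and level or higher in those numbered 2, and the IL-4 difference of number 2 minus number 1 was 0.8503 on the log2 scale (limma adjusted p 0.1277). For Jund, both pairs numbered 1 were higher with IL-4 and both numbered 2 lower, a difference of -1.127 (limma adjusted p 0.1096). The genotype difference by title, with IL-4 minus in control, ran opposite ways for Junb at -0.3887 and for Jund at -0.4861 (limma adjusted p 0.9999 for both). In the controls numbered 1 the genotypes were level within the deposited bounds, at 112.0 and 112.4 FPKM for Junb and 35.9 and 36.0 for Jund. In the controls numbered 2 they read 79.0 and 83.1 FPKM for Junb and 41.5 and 47.5 for Jund. None of these 4 differences passed.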

How the results depend on the processing

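Counts of called genes and members are given for the alternatives by limma. For IL-4 in Ern1f/f, where 0 genes and 0 members were called, genes came to 31 without a filter, 9 at a mean of at least 5 FPKM, 11 with upper quartile scaling, 232 with the replicate block and 2264 with groups from the genotype field. With the block and upper quartile scaling, quantile normalization, pseudocount 0.1 or pseudocount 5 they came to 241, 214, 280 and 195, and members to 1 in each block fit and 6 by the field. For IL-4 in Ern1f/fLyz2-Cre (6 genes, 0 members) genes came to 0 with pseudocount 0.1, 1 without a filter, 22 at a mean of 5 FPKM, 13 and 18 with the 2 scalings, 0 with no variance trend or with only the groups compared, 363 with the block and 1273 by the field. With the block and the same 4 changes they came to 382, 335, 449 and 258, and members to 2 by the field and 1 in the first 3 of these. Averaged over genotypes (92 genes, 0 members), genes came to 1393 with the block, 2919 by the field, and 1490, 1425, 1506 and 1209, and members to 2 in each block fit and 5 by the field. For genotype in control, with IL-4 and averaged (0 genes and 0 members each), genes came to 10, 17 and 24 without a filter and to 3816, 3273 and 5240 by the field, with 6 members in each by the field. The interaction called 22 genes without a filter and 106 by the field. Genotype with IL-4 called 1 gene with the block and 1 with either scaling added. By number, 2 members and 1275 genes were called without a filter, against 5 and 3657.

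Leaving out each library gave 3 to 49 genes without the block and 471 to 1222 with it for averaged IL-4, 0 to 1 and 6 to 277 in Ern1f/f, and 0 to 1 and 2 to 325 in Ern1f/fLyz2-Cre. Members came to 1 to 3 with the block for averaged IL-4, 0 to 1 in Ern1f/f, and 4 to 6 by number with 2344 to 2612 genes. Genotype gave 0 to 2 genes in control, 0 with IL-4 and 0 to 1 averaged, and the interaction 0 to 1. The cause was not tested in any of these cases.

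Without the block, the averaged IL-4 difference turned direction when a library was left out for Fos (-0.70 to 0.084 over the libraries left out), Junb (-0.35 to 0.10), Jund (-0.15 to 0.42 over the fits with and without it), Batf (-1.15 to 0.25), Dusp6 (-0.85 to 0.018) and Dusp7 (-0.49 to 0.17), as did the difference by number of Jund, with number as a term (-0.48 to 0.017). With the block, Jund turned likewise, while Fos (-0.56 to -0.057), Junb (-0.22 to -0.035), Batf (-0.69 to -0.21), Dusp6 (-0.50 to -0.33) and Dusp7 (-0.22 to -0.098) kept their sign. Over 24 member results and 620 alternatives, 558 kept direction and side of the threshold, 44 newly passed, 5 ceased to pass and 13 turned direction. Fosl2 in Ern1f/fLyz2-Cre passed with the block and upper quartile scaling (adjusted p 0.0436), quantile normalization (0.0413) or pseudocount 0.1 (0.0467). By number, genes called higher and lower were 1104 and 2553 as deposited, 1406 and 2140 with upper quartile scaling and 1619 and 1745 with quantile normalization, and the median of all genes was -0.107, -0.057 and -0.011. Only the groups compared could not be fitted for averages, the interaction or number. The deposited bounds were widest for Fosb and for Fosl1 in the libraries numbered 2, and each group has 2 libraries.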
